A study of Mus musculus with 18 samples.

Results

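The 9 genes described here encode 8 poly(ADP-ribose) polymerases (PARPs) and 1 partner protein: Parp9, Dtx3l, Parp14, Parp12, Parp10, Parp11 and Parp3, together with Parp1 and Parp2 as a constitutive comparison. They were chosen by symbol from the 24493 genes of the deposited expression table, and all 9 were found there. The choice of these genes and of the gene lists below was made with earlier results of these data known. Shares of all genes given beside their counts are therefore for scale and are no test. All 9 were also among the 13422 genes tested, those whose TPM (transcript abundance corrected for transcript length and scaled to a fixed sum per library) averaged 1 or more across the 18 libraries.

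RNA sequencing had been done on sorted tumor cells of 2 mouse pancreatic tumor lines, 6694c2 and 6419c5, of strain C57BL/6, which had grown as subcutaneous implants and received no treatment. Within each line, 2 clones with a knockout of Kdm3a, Kdm3aKO2 and Kdm3aKO1 (KO2 and KO1 below), were set against wild-type (WT) cells, with 3 libraries in each of the 6 groups. Kdm3a is an enzyme that takes methyl groups off lysine 9 of histone H3. Each knockout group is 1 clone, so its 3 libraries measure that clone. The host animals' age, the sorting marker and the number of animals behind each group are not given in the sources used here, so every p-value below measures the spread between these libraries only.

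PARPs move ADP-ribose from NAD+ onto proteins. Parp1 and Parp2 are nuclear enzymes that bind broken DNA and build chains of ADP-ribose, whereas most other family members attach single units or, like Parp9, have weak activity of their own. In many cell types Parp9, Parp10, Parp11, Parp12, Parp14 and Dtx3l are known as genes that interferons switch on, and their products are studied for roles in antiviral defence. Parp3 is known mainly for the repair of DNA double-strand breaks. No interferon was given in this study, so induction by interferon was not tested here.

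Parp9 (chromosome 16, 35938470 to 35972605, plus strand, GRCm38) and Dtx3l (chromosome 16, 35926511 to 35939151, minus strand) lie head to head, and Parp14 (chromosome 16, 35832874 to 35871544, minus strand) starts 67.6 kb from the start of Dtx3l. The other members lie apart: Parp12 at chromosome 6, 39086410 to 39118349 (minus strand), Parp11 at chromosome 6, 127446840 to 127494261 (plus), Parp10 at chromosome 15, 76231174 to 76243441 (minus), Parp3 at chromosome 9, 106470322 to 106476949 (minus), Parp1 at chromosome 1, 180568924 to 180601254 (plus) and Parp2 at chromosome 14, 50807841 to 50821301 (plus). The Parp9 and Dtx3l annotations overlap by 682 bases and share 458 bases of exon, of 4872 exon bases in Parp9 and 5725 in Dtx3l, so the quantification could have split some reads between them and each value carries that uncertainty. Parp10 shares 205 exon bases with Plec, and Parp3 shares 20 with Rrp9.

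RefSeq promoter windows on GRCm38.p6 (250 bases before to 50 after a start site) were at hand for Parp1, Parp2, Parp3, Parp11, Parp12 and Dtx3l, 7 windows for 6 of the 9 genes. They were searched on both strands for the core of the interferon-stimulated response element, GAAA and GAAA with 2 bases of any kind between them, and for the gamma-activated site, TTCNNNGAA. Of 32851 RefSeq promoter windows of the same length, 3.44% held the first and 8.3% the second. Of the 7 windows, 1 held either motif: the Parp11 window at chr6:127446590-127446889 (plus strand) had TTTCGATTTC, the first motif read on the opposite strand, at position -44 from the start, and TTCTTGGAA, the second, at position -37, overlapping it. The other Parp11 window, at chr6:127453377-127453676 (plus strand), held neither motif. A match describes letters and not binding, and its absence says only that these letters are not in these 300 bases. The Parp11 window is printed because it held both motifs, which are in capitals, the Dtx3l window at chr16:35938978-35939277 (minus strand) because it covers the start of Dtx3l, which overlaps Parp9 head to head, and the Parp1 window at chr1:180568641-180568940 (plus strand) for comparison.
Parp11: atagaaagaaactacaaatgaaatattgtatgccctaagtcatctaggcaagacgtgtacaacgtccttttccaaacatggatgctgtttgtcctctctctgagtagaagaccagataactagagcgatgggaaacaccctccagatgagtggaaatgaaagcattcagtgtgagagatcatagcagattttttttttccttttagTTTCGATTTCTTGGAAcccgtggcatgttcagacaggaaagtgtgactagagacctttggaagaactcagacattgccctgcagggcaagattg
Dtx3l: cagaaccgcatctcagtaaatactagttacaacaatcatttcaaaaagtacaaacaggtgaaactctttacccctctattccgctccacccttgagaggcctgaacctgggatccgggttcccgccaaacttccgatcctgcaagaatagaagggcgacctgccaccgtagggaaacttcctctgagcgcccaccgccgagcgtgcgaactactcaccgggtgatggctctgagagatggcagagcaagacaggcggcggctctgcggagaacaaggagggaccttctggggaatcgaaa
Parp1: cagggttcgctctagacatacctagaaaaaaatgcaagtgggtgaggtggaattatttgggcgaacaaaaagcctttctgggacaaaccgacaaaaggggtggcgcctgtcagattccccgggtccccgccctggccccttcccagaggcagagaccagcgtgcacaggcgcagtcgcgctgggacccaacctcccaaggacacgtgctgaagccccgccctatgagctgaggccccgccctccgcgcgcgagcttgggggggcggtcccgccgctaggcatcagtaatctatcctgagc

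The targeted transcript was lower in the knockouts but present. Kdm3a had 25.2 to 30.2 TPM in 6694c2 KO2 libraries and 26.2 to 29.8 in KO1, against 38.9 to 67.6 in WT, and 12.3 to 18.8 TPM in 6419c5 KO2 and 21.6 to 24.6 in KO1, against 24.1 to 38.2 in WT. The log2 change of the mean of both clones was -0.75 in either line (adjusted p = 0.009101 in 6694c2 and 0.01851 in 6419c5), and the 6419c5 KO1 clone alone was not called (-0.45, adjusted p = 0.2991). Between 12213 and 13590 genes reached 1 TPM in a library, and read depth is unknown because the files hold TPM only. Tumor epithelial keratin and adhesion genes summed to between 5379 and 12183 TPM in every library, most of it from Krt8, Krt18 and Krt19. For the mean of both clones, 3 of these 6 genes were called lower in 6694c2 and 2 in 6419c5, and 0 higher. Epcam had 0.745 to 1.12 TPM in 6694c2 KO2 and 2.74 to 7.56 in KO1, against 21.6 to 28.3 in WT. In 6419c5, Epcam had 20.2 to 34.1 TPM in KO2 and 87.7 to 199.3 in KO1, against 236.3 to 273.1 in WT. Macrophage genes (10 of 10 in the table) were also present and varied within and between groups: their summed level was 451 to 3639 TPM in 6694c2 KO2, 3552 to 6638 in KO1 and 155 to 1844 in WT, and 222 to 465 in 6419c5 KO2, 2491 to 8831 in KO1 and 1312 to 8066 in WT. Replicate 3 of 6694c2 KO2 (3639 TPM), replicate 1 of 6694c2 KO1 (6638 TPM) and replicate 3 of 6419c5 WT (8066 TPM) held the most macrophage RNA of their groups, and the second of them also had 126.8 TPM of summed endothelial markers, against 15.1 and 17.8 in the other KO1 libraries. The results were also computed without these 3 libraries, called those that stood apart below. Replicate 2 of 6694c2 WT, with 1844 TPM of macrophage RNA against 155 and 603 in its group, was kept in that fit.

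In 6694c2 knockout tumors, all 7 genes other than Parp1 and Parp2 rose, led by Parp14, and neither Parp1 nor Parp2 passed the test. Changes are log2 differences of log2(TPM + 1), mean of both clones minus WT, with the standard error (SE) and the Benjamini-Hochberg adjusted p of one limma model of all 18 libraries, called at an adjusted p under 0.05. On this scale the change of a weakly expressed gene comes out too small. Over all genes tested in 6694c2, 14.7% were called higher and 5.79% lower. The 7 genes had a median change of 1.25, against 0.15 over all genes tested.

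Parp9, an ADP-ribose reader with macrodomains, had 35.3, 37.5 and 37.8 TPM in 6694c2 KO2 libraries, 30.1, 28.4 and 28.6 in KO1, and 11.2, 9.76 and 14.4 in WT. Its partner Dtx3l, an E3 ubiquitin ligase that forms a complex with Parp9, had 23.7, 23.1 and 23.9 TPM in KO2, 19.5, 21.0 and 18.3 in KO1, and 6.42, 7.36 and 12.7 in WT. Every knockout library of both genes lay above every WT library, and the third WT library was the highest of its group for both. Parp9 rose by 1.41 (SE 0.11, adjusted p = 4.496e-07) and Dtx3l by 1.25 (SE 0.17, adjusted p = 0.000121). TPM are scaled per length, so levels can be set beside each other. The ratio of Parp9 to Dtx3l TPM was 1.56 ± 0.072 in KO2, 1.49 ± 0.12 in KO1 and 1.40 ± 0.31 in WT (SD, n = 3 each). The WT libraries, at 1.14 to 1.74, spanned the range of both clones. In 6419c5 the mean ratio was 1.51 in KO2, 1.23 in KO1 and 1.30 in WT. In bulk RNA such as this, fewer cells of a type and less RNA per cell cannot be told apart.

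Parp14, which attaches single ADP-ribose units and also carries macrodomains, had 24.8, 25.9 and 27.03 TPM in 6694c2 KO2 libraries, 20.9, 20.6 and 18.6 in KO1, and 4.68, 5.51 and 6.58 in WT. The lowest knockout library was well above the highest WT library. The change was 1.86 (SE 0.11, adjusted p = 2.907e-08), rank 235 of the 13422 genes from the highest. Parp12, a zinc-finger PARP, had 43.7, 41.8 and 47.7 TPM in KO2, 34.8, 36.9 and 32.1 in KO1, and 13.9, 14.2 and 13.5 in WT, with no overlap between groups. It rose by 1.43 (SE 0.094, adjusted p = 6.107e-08).

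The other 3 members rose by less. Parp10, which attaches single ADP-ribose units and binds ubiquitin, had 25.3, 23.0 and 27.3 TPM in 6694c2 KO2 libraries, 24.4, 24.0 and 24.8 in KO1, and 13.0, 14.4 and 11.9 in WT, a rise of 0.87 (SE 0.10, adjusted p = 3.233e-05). Plec, which shares exon bases with it, fell by 0.54 in the same comparison (adjusted p = 0.003168). Parp11, a small PARP with a WWE domain, had the lowest levels of the 9 genes in knockouts, with 15.4, 14.02 and 16.5 TPM in KO2, 12.02, 10.2 and 12.5 in KO1, and 7.64, 5.36 and 7.89 in WT, a rise of 0.86 (SE 0.14, adjusted p = 0.0005909). Parp3 had 29.4, 28.3 and 29.9 TPM in KO2, 24.9, 24.2 and 25.8 in KO1, and 16.7, 19.1 and 14.1 in WT. Its rise of 0.67 (SE 0.090, adjusted p = 0.0001053) was the smallest of the 7, and its groups did not overlap. For all 7 genes, every library of both knockout clones lay above every WT library, which held for 13.2% of the genes tested.

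Parp1 had 44.7, 45.4 and 39.6 TPM in 6694c2 KO2 libraries, 44.2, 39.0 and 36.3 in KO1, and 42.1, 38.3 and 36.9 in WT. Parp2 had 23.1, 19.4 and 20.4 TPM in KO2, 20.1, 16.7 and 18.1 in KO1, and 18.9, 16.5 and 18.4 in WT. The knockout and WT ranges overlapped for Parp1 in both clones and for Parp2 in KO1, while the KO2 libraries of Parp2 lay just above WT, as for 24% of the genes tested. The interval of the difference was -0.10 to 0.27 for Parp1 (change 0.08, adjusted p = 0.5338) and -0.14 to 0.38 for Parp2 (0.12, adjusted p = 0.5216). Summed over the 7 other members, the level was 200.4 ± 8.65 TPM in KO2, 164 ± 3.14 in KO1 and 76.8 ± 3.90 in WT (SD, n = 3 each), and the sum of Parp1 and Parp2 was 64.2, 58.1 and 57.0 TPM. The ratio of these sums was 3.13 in KO2, 2.84 in KO1 and 1.35 in WT.

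The 7 calls in 6694c2 held under each of the 30 alternatives run. Scaling moved the background: the median over all genes shifted by -0.18 with median-of-ratios scaling and by -0.20 with quantile normalization, and the split of calls turned round, with 1028 higher and 1792 lower or 866 higher and 1614 lower, against 1967 and 777 as deposited. Relative to the median over all genes, the 7 changes spanned 0.52 to 1.71 as deposited, 0.51 to 1.71 with median-of-ratios scaling and 0.54 to 1.64 with quantile normalization.

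**Figure D1:**
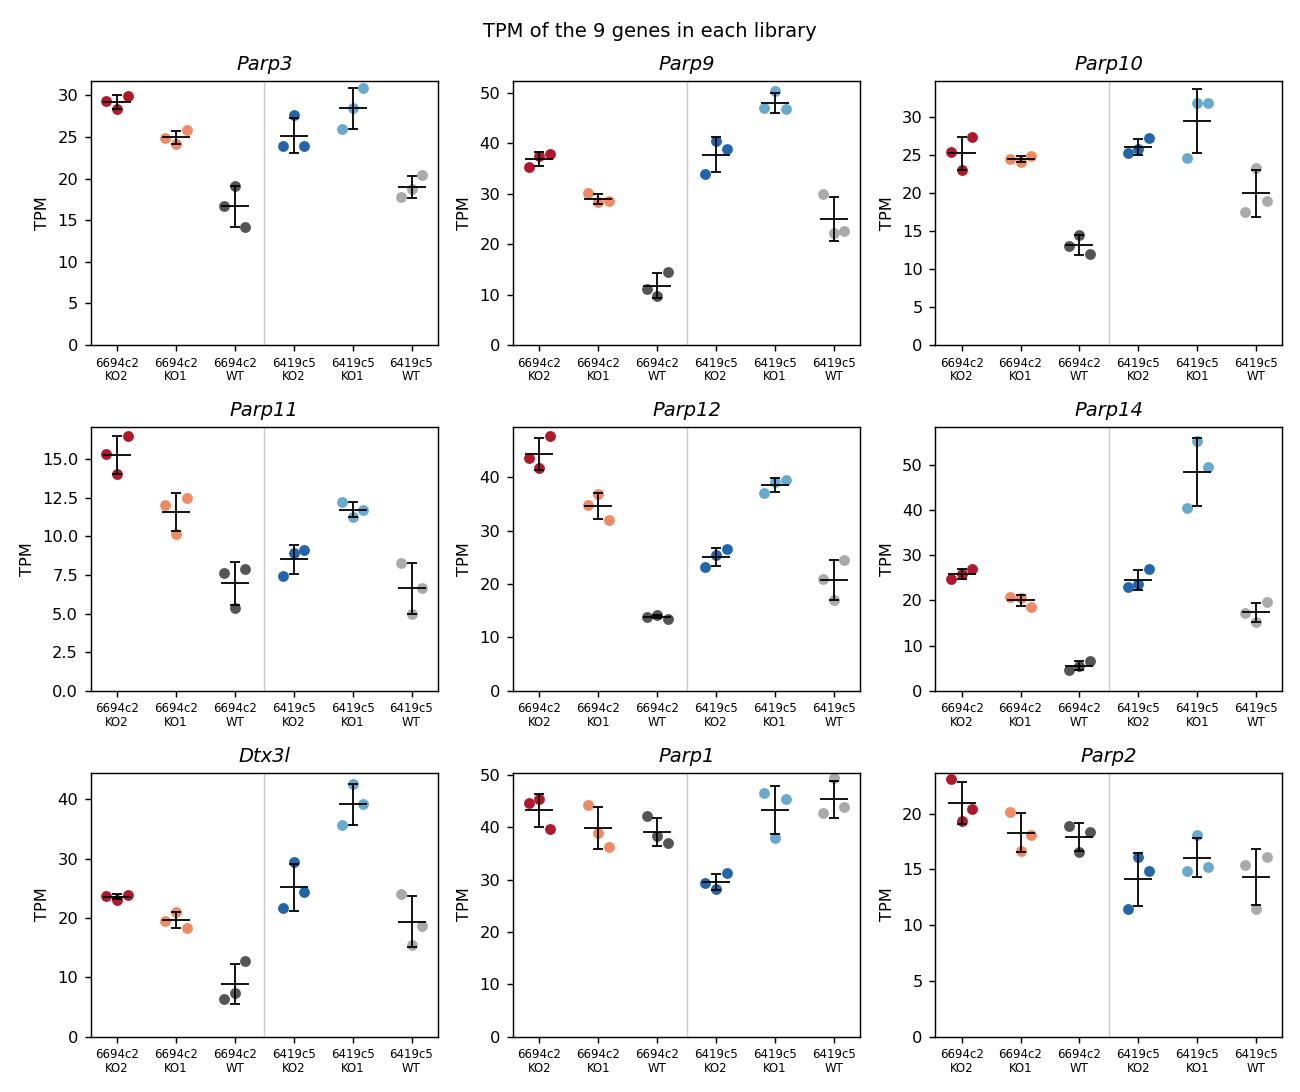
TPM of the 9 genes in each of the 18 libraries (points), with the mean and SD of each group of 3 (bars); groups are KO2, KO1 and WT of 6694c2, then of 6419c5, and each panel has its own axis from 0. The 6694c2 WT libraries are the lowest for Parp14, Parp9, Dtx3l, Parp12 and Parp10, and Parp1 stands lowest in 6419c5 KO2.

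In 6419c5, the same 7 genes rose again, by less than in 6694c2 for 3 of them as tested further on. Here Parp1 fell in KO2. The median of the 7 changes was 0.57, against 0.01 over all genes, and 3.97% of the genes tested were called higher, 3.4% lower and 7.38% in either direction. The 2 clones of this line differed from each other, with larger rises in KO1 than in KO2 for Parp14, Dtx3l and Parp12.

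Parp9 had 33.8, 40.5 and 38.9 TPM in 6419c5 KO2 libraries, 47.0, 50.3 and 46.8 in KO1, and 30.0, 22.3 and 22.6 in WT. Dtx3l had 21.7, 29.4 and 24.4 TPM in KO2, 35.7, 42.6 and 39.3 in KO1, and 24.0, 15.5 and 18.6 in WT. Parp9 was higher in every library of either clone than in WT, whereas the KO2 and WT libraries of Dtx3l overlapped. The mean of both clones rose by 0.76 for Parp9 (SE 0.11, adjusted p = 0.0005324) and by 0.68 for Dtx3l (SE 0.17, adjusted p = 0.02159).

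Parp14 had 23.0, 23.5 and 26.98 TPM in 6419c5 KO2 libraries, 40.4, 55.3 and 49.4 in KO1, and 17.3, 15.2 and 19.6 in WT, so that the KO2 libraries lay just above WT and the KO1 libraries far above both. Its change, 0.95 (SE 0.11, adjusted p = 7.989e-05), was the largest of the 9. Parp12 had 23.2, 25.5 and 26.5 TPM in KO2, 36.9, 39.1 and 39.4 in KO1, and 20.9, 16.9 and 24.5 in WT, with KO2 and WT overlapping. It rose by 0.57 (SE 0.094, adjusted p = 0.001291).

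Parp10 had 25.2, 25.7 and 27.2 TPM in 6419c5 KO2 libraries, 24.6, 31.8 and 31.8 in KO1, and 17.5, 23.3 and 18.9 in WT, a rise of 0.46 (SE 0.10, adjusted p = 0.01246). Parp11 had 7.45, 8.95 and 9.13 TPM in KO2, 12.2, 11.2 and 11.7 in KO1, and 8.27, 4.99 and 6.68 in WT, and rose by 0.54 (SE 0.14, adjusted p = 0.02664). Parp3 had 23.9, 27.6 and 23.9 TPM in KO2, 26.0, 28.5 and 30.9 in KO1, and 17.8, 18.8 and 20.4 in WT, and rose by 0.47 (SE 0.090, adjusted p = 0.003887). Both clones lay wholly above WT for Parp3, Parp9, Parp10 and Parp14, 4 of the 9 genes, where 4.6% of all genes tested did so. KO2 and WT overlapped for Parp11, Parp12 and Dtx3l.

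Parp1 had 29.4, 28.2 and 31.2 TPM in 6419c5 KO2 libraries, 46.5, 38.0 and 45.4 in KO1, and 42.7, 49.4 and 43.9 in WT. The KO2 libraries were the lowest of all 18, and KO1 overlapped WT. All KO2 libraries lay below all WT libraries for 20.3% of the genes tested. The mean of both clones fell by 0.33 (SE 0.087, adjusted p = 0.02934). KO2 by itself differed from WT by -0.60 (adjusted p = 0.0008876), and KO1 by -0.07 (interval -0.28 to 0.15, adjusted p = 0.8116). Parp2 had 11.5, 16.1 and 14.8 TPM in KO2, 14.9, 18.1 and 15.2 in KO1, and 15.4, 11.4 and 16.1 in WT, with all groups overlapping (0.07, interval -0.19 to 0.34, adjusted p = 0.8438). The sum of the 7 other members was 172 ± 12.2 TPM in KO2, 244 ± 18.6 in KO1 and 128 ± 9.83 in WT (n = 3 each). The sum of Parp1 and Parp2 was 43.7, 59.3 and 59.7 TPM, and the ratio of these sums was 3.94, 4.12 and 2.15. The ratio in KO2 thus also reflects the lower Parp1 level of that clone.

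The calls of Parp3, Parp9, Parp12 and Parp14 in 6419c5 held under each of the 30 alternatives, while Dtx3l, Parp10, Parp11 and Parp1 lost theirs under 4, 6, 7 and 9 of them. Without WT replicate 3, the library with the most macrophage RNA in its group, 4 members were called in place of 8, without WT replicate 2 there were 5, and without the 3 libraries that stood apart there were 5.

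**Figure D2:**
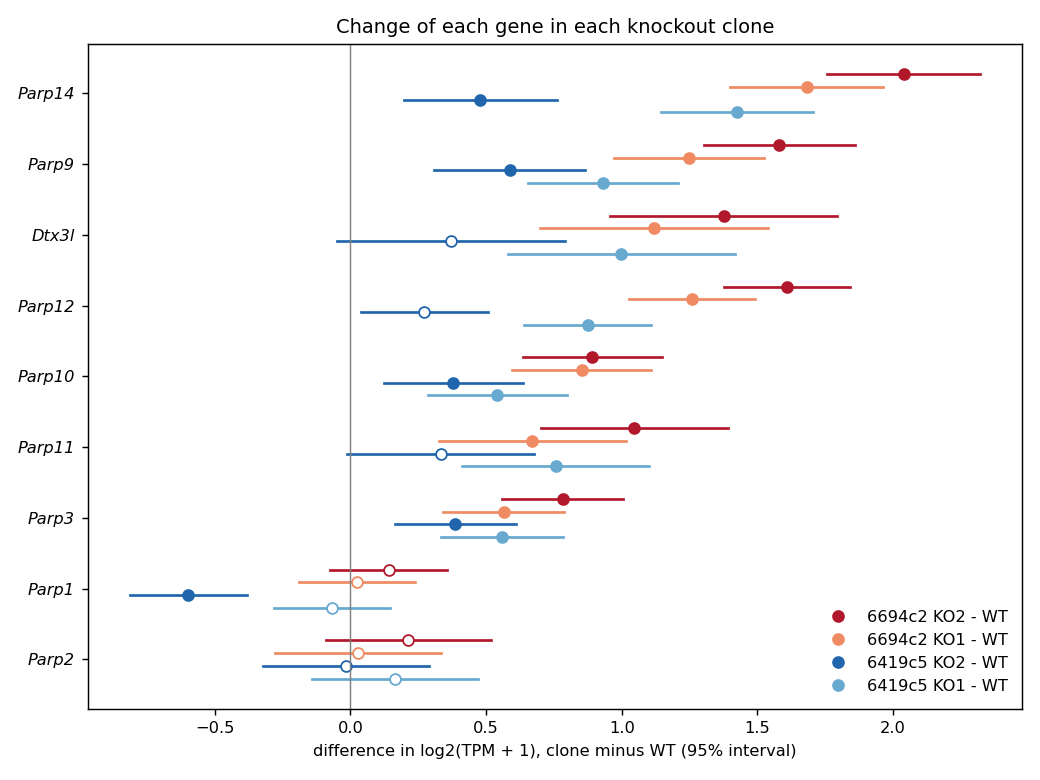
Log2 change (TPM + 1) of each of the 9 genes in each knockout clone against the WT libraries of its line, with 95% intervals; filled points were called at an adjusted p under 0.05 and open points were not. The 7 genes are above 0 in all 4 clones, lowest in 6419c5 KO2, and Parp1 is below 0 with a filled point in 6419c5 KO2 alone.

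By clone, the genes rose in 6694c2 KO2 by 0.78 (Parp3) to 2.04 (Parp14) and in 6694c2 KO1 by 0.56 (Parp3) to 1.68 (Parp14), with all 7 called in each, where 10.6% and 14.7% of all genes were called higher. The 2 clones of a line share their WT libraries, so these values are not independent of each other. The difference KO2 minus KO1 in 6694c2 was called for none of the 9 by limma, where 9.53% of all genes were called. It spanned 0.04 (Parp10) to 0.38 (Parp11) over the 7. At an unadjusted p under 0.05 there were 4 members, and with only the KO2 and KO1 libraries in the fit 3 were called. The shares of all genes under these other rules are not given here, so these counts stand without a background.

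In 6419c5, KO1 rose by 1.42 for Parp14, 0.999 for Dtx3l, 0.93 for Parp9, 0.87 for Parp12, 0.76 for Parp11, 0.56 for Parp3 and 0.54 for Parp10, all 7 called, where 3.14% of genes were called higher. KO2 had 4 genes called higher, Parp9 (0.59, adjusted p = 0.005918), Parp14 (0.48, 0.02014), Parp3 (0.39, 0.01825) and Parp10 (0.38, 0.0386), against 7.97% of all genes, while Dtx3l (0.37, adjusted p = 0.2153), Parp11 (0.33, 0.1752) and Parp12 (0.27, 0.09845) were not called. Parp1 was called lower there, as were 11% of all genes. KO2 minus KO1 in this line was -0.95 for Parp14 (adjusted p = 0.000168), -0.63 for Dtx3l (0.02812), -0.60 for Parp12 (0.001258) and -0.53 for Parp1 (0.001703), 4 genes called lower where 18.9% of all genes were. Parp9 (-0.34) and Parp11 (-0.42) missed the threshold (adjusted p = 0.06466 and 0.06726), and the intervals for Parp3 (-0.39 to 0.05) and Parp10 (-0.42 to 0.09) covered 0. The ratio of Parp14 to Parp9 TPM was 0.651 in 6419c5 KO2, 1.01 in KO1 and 0.708 in WT.

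Macrophage genes moved with the clone difference in 6419c5: all 10 were called lower in KO2 than in KO1, and 9 of 10 were called lower in KO2 than in WT. With the macrophage index (the mean log2(TPM + 1) of the 10 genes) as a covariate, Parp14 was still lower in KO2 than in KO1, Parp12 was not called (-0.38, adjusted p = 0.1326) and neither was Dtx3l (-0.94, adjusted p = 0.05745). Under the same covariate Parp9 lost its call in KO2 against WT (0.39, adjusted p = 0.1093). Parp12 gained a call there (0.44, against 0.27 without the covariate, adjusted p = 0.03651). The index of KO2 lay below those of KO1 and WT without overlap, so this fit cannot tell macrophage content and clone apart. Parp10 of KO2 lost its call under 13 of the 30 alternatives, and with only the KO2 and WT libraries in the fit none of the 4 rises in KO2 was called (adjusted p of 0.06804 for Parp3, 0.05313 for Parp9, 0.1103 for Parp10 and 0.06482 for Parp14), which left the fall of Parp1.

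Averaged over both clones, the rise was larger in 6694c2 than in 6419c5 for 3 of the 7 genes, by the test of the difference. That test counts the spread between libraries and not that between clones. KO2 minus KO1 in 6419c5 was -0.95 for Parp14, -0.60 for Parp12 and -0.34 for Parp9, the last not called. With 2 clones per line, line and clone differences cannot be told apart. The change in 6694c2 minus that in 6419c5 was 0.91 for Parp14 (SE 0.16, adjusted p = 0.003099), 0.86 for Parp12 (SE 0.13, adjusted p = 0.001304) and 0.66 for Parp9 (SE 0.16, adjusted p = 0.01947). It was not called for Dtx3l (0.56, interval 0.049 to 1.08, adjusted p = 0.1657), Parp10 (0.41, interval 0.099 to 0.73, 0.09833), Parp11 (0.31, interval -0.11 to 0.74, 0.3599), Parp3 (0.20, interval -0.072 to 0.47, 0.3636) or Parp2 (0.05, interval -0.33 to 0.42, 0.8996). Parp1 was called at 0.42 (adjusted p = 0.04959), a call that 24 of 30 alternatives ended, and over all genes 5.78% were called higher. Parp9 lost its call without the 3 libraries that stood apart (0.70, adjusted p = 0.0558), without 6419c5 WT replicate 1 (0.52, 0.05096) and without 6694c2 WT replicate 2 (0.54, 0.05367). Median-of-ratios scaling moved the split of all genes in this comparison to 509 higher and 814 lower, against 776 and 393, and kept Parp9, Parp12 and Parp14 called.

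The WT tumors of the lines already differed. WT 6694c2 libraries were below WT 6419c5 libraries for Parp14 (difference -1.48, SE 0.13, adjusted p = 4.688e-07), Dtx3l (-1.08, SE 0.20, adjusted p = 0.0003856), Parp9 (-1.02, SE 0.13, adjusted p = 1.538e-05), Parp10 (-0.56, SE 0.12, adjusted p = 0.001422) and Parp12 (-0.54, SE 0.11, adjusted p = 0.0009782), where 32.2% of all genes were called lower. The differences for Parp3 (-0.19, interval -0.41 to 0.037), Parp11 (0.07, interval -0.28 to 0.41), Parp1 (-0.21, interval -0.42 to 0.0063) and Parp2 (0.32, interval 0.012 to 0.62) were not called. Relative to the median of all genes, which was -0.22, the 7 differences spanned -1.26 to 0.28. Parp10 lost its call under median-of-ratios scaling and quantile normalization, and Parp12 under quantile normalization. Parp2 was called higher in WT 6694c2 under median-of-ratios scaling (0.53, adjusted p = 0.001938), quantile normalization (0.57, adjusted p = 0.0007139) and removal of the 20 most abundant genes (0.40, adjusted p = 0.01377), and Parp11 under quantile normalization (0.42, adjusted p = 0.01294).

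The order of levels across the 6 groups differed between the genes. Parp14, Parp9, Dtx3l and Parp10 had their highest mean in 6419c5 KO1 (48.4 ± 7.49, 48.0 ± 1.995, 39.2 ± 3.45 and 29.4 ± 4.18 TPM, SD, n = 3), above the next group without overlap for the first 3. Parp12, Parp11, Parp3 and Parp2 had theirs in 6694c2 KO2 (44.4 ± 3.03, 15.3 ± 1.23, 29.2 ± 0.802 and 21.0 ± 1.93 TPM), without overlap for Parp12 and Parp11. The lowest mean was that of 6694c2 WT for Parp14, Parp9, Dtx3l, Parp12, Parp10 and Parp3, and that of 6419c5 WT for Parp11, where it overlapped 6694c2 WT. In the middle of the order, the libraries of 6694c2 KO1 overlapped those of 6419c5 WT for Parp9, Parp14 and Dtx3l. Parp2 overlapped between all neighbouring groups, and Parp1 did so except for 6419c5 KO2, which stood alone at 29.6 ± 1.53 TPM.

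Over both lines with equal weight, the 7 genes were all called higher, where 12.5% of genes were. The changes were 1.41 for Parp14, 1.09 for Parp9, 1.003 for Parp12, 0.97 for Dtx3l, 0.70 for Parp11, 0.67 for Parp10 and 0.57 for Parp3, and all 7 calls held under each of the 30 alternatives. Parp1 (-0.13, interval -0.26 to 0.0062, adjusted p = 0.1778) and Parp2 (0.10, interval -0.089 to 0.28, adjusted p = 0.4845) were not called.

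Around Parp14, Parp9 and Dtx3l on chromosome 16, the neighbouring genes did not pass the test. Within 250 kb of their starts, 12 genes were in the table and 9 were tested, of which 6 are no member: Dirc2, Hspbap1, Kpna1, Wdr5b, Fam162a and Ccdc58. None of the 6 was called in either line, with changes of 0.08 to 0.56 in 6694c2 and -0.12 to 0.29 in 6419c5. Over all genes tested, 20.4% were called in either direction in 6694c2 and 7.38% in 6419c5, so no call among 6 genes is near that share. Kpna1, an importin that starts 39.6 kb from Dtx3l, changed by 0.21 in 6694c2 (adjusted p = 0.6637) and by 0.005 in 6419c5 (adjusted p = 0.9981). Beside the other members, Rrp9 next to Parp3 was not called in either line (0.15 and 0.04), and Rpph1, whose start lies 74 bases from that of Parp2, was not called (-0.12 and -0.20). Grina, next to Parp10, was called in 6419c5 (0.40, adjusted p = 0.004368) and not in 6694c2 (-0.02, adjusted p = 0.9118), and Cracr2a, the nearest tested gene to Parp11 and low at a mean of 1.72 TPM, was called in 6694c2 (1.01, adjusted p = 0.03146) and not in 6419c5 (-0.06, adjusted p = 0.9619). The nearest tested genes to Parp12 and Parp1, 1700025N23Rik and Mir6904, were not called in either line.

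**Figure D3:**
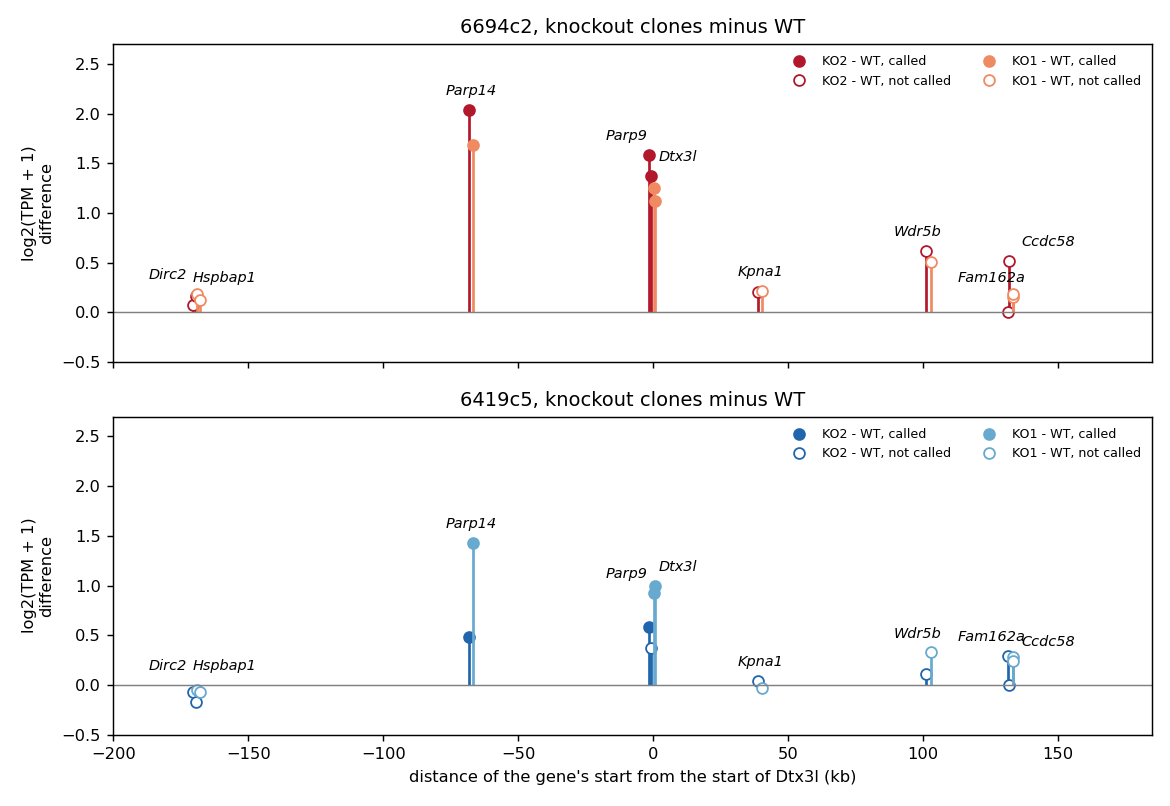
Log2 change against WT of the 9 tested genes around Dtx3l on chromosome 16, by the distance of their start from that of Dtx3l in kb, for KO2 and KO1 of each line; filled points were called at an adjusted p under 0.05. Parp14, Parp9 and Dtx3l stand above their 6 neighbours in both lines, and no neighbour has a filled point. Over all genes tested, 14.5% were called in either direction in 6694c2 KO2, 21.7% in 6694c2 KO1, 18.9% in 6419c5 KO2 and 4.79% in 6419c5 KO1.

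Most other genes of ADP-ribosylation were not called. Of 39 listed genes (other PARPs, other Deltex ligases, enzymes that remove ADP-ribose, readers and cofactors, and NAD supply), 35 were tested, and 6 were called higher and 1 lower in 6694c2, near the 14.7% and 5.79% of all genes. Their median change was 0.26 in 6694c2, against 0.15 over all genes, and 0.02 in 6419c5, against 0.01. The largest was Dtx3, a Deltex ubiquitin ligase related to Dtx3l, with means of 30.1 ± 0.636 TPM in 6694c2 KO2, 27.9 ± 3.12 in KO1 and 13.9 ± 3.50 in WT (1.04, adjusted p = 0.0001536). In 6419c5 it had 13.9 ± 2.20 TPM in KO2, 25.7 ± 1.86 in KO1 and 13.6 ± 2.40 in WT, and the mean of both clones missed the threshold (0.46, adjusted p = 0.07049).

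Among the others called higher in 6694c2 were Hpf1, which directs Parp1 and Parp2 to serine (0.62, adjusted p = 0.0439), and Oard1, which removes ADP-ribose from proteins (0.51, adjusted p = 0.006034). Parp8 was called lower (-0.63, adjusted p = 0.0127). With median-of-ratios scaling, Dtx3 and Oard1 alone were called higher among the 35, and Parp8 was called lower (-0.82, adjusted p = 0.0003914). Parp8 had 17.9 ± 3.26 TPM in 6694c2 KO2, 9.09 ± 1.13 in KO1 and 20.6 ± 5.21 in WT, and was not called with the macrophage index as a covariate (-0.42, adjusted p = 0.05184). In 6419c5, 2 of the 35 were called higher and 0 lower by limma, near the 3.97% and 3.4% of all genes. They were Dtx4 (0.44, adjusted p = 0.01044) and the vault PARP Parp4 (0.44, adjusted p = 0.04094), which was not called after removal of the 20 most abundant genes (adjusted p = 0.0516).

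Part of the interferon signal list rose as well. Of 19 listed, 17 were tested, and 10 were called higher and 0 lower by limma in 6694c2, where 14.7% of all genes were called higher, and 5 higher and 0 lower in 6419c5, where 3.97% were. The other 7 of the 17 in 6694c2 and 12 of the 17 in 6419c5 were not called. Their median change was 0.48 in 6694c2, against 0.15 over all genes, and 0.32 in 6419c5, against 0.01.

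Irf1, an interferon-induced transcription factor, had 118.7 ± 2.82 TPM in 6694c2 KO2, 100.7 ± 5.04 in KO1 and 33.0 ± 5.26 in WT, and 88.5 ± 8.86 in 6419c5 KO2, 140.7 ± 11.97 in KO1 and 56.9 ± 0.997 in WT (SD, n = 3 each). No WT library of Irf1 reached the lowest knockout library of its line. It rose by 1.71 in 6694c2 (adjusted p = 6.219e-09) and by 0.95 in 6419c5 (adjusted p = 7.679e-06). The negative regulators Usp18 (2.58 in 6694c2 and 0.94 in 6419c5) and Socs1 (2.16 and 0.87) were called in both lines, as was the transcription factor Stat2 (1.64 and 0.61). The 5 genes called in 6694c2 and not in 6419c5 had changes of 0.33 to 1.99, and 1 of them, Jak1 (named after its values were seen), was not called under median-of-ratios scaling, quantile normalization or removal of the 20 most abundant genes. None of the 4 genes for the interferon receptors was called in the mean of both clones in either line. Over both lines with equal weight Ifnar2 (0.30, adjusted p = 0.02308) and Ifngr2 (0.20, adjusted p = 0.01329), also named after their values were seen, were called higher, and neither was with median-of-ratios scaling or quantile normalization. Ifng was listed at 0 in every WT library and in every 6419c5 KO1 library and reached 0.898 TPM at most, in 6694c2 KO1.

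Over the 18 libraries, the 7 genes varied together. Pearson's r of log2(TPM + 1) between them was 0.544 to 0.967 with a median of 0.825 over 21 pairs, between them and Parp1 -0.08 to 0.16, and between them and Parp2 -0.10 to 0.64. The points share lines, clones and libraries, so these values describe the 18 libraries and carry no p. Among 10512 other genes averaging 5 TPM or more, those most like the mean standardised level of the 7 were Gbp7 (r = 0.990), Ifi47 (0.981), Irf1, Gbp5 (0.975), B2m (0.973), Gbp8, Ciita, H2-DMb1, Gbp3 and Gbp9 (0.962). Gbp genes encode guanylate-binding proteins, Ifi47 an immunity-related GTPase, and B2m the shared subunit of MHC class I.

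Single members had different nearest genes. The highest r was with Ifi47 (0.975), Nmi and Ube2l6 (0.962) for Parp9, with Mlkl (0.953), Ly75 (0.944) and Gphn (0.943) for Dtx3l, and with Gbp8 (0.975), Ube2l6 (0.967) and Xdh (0.967) for Parp14. Nlrc5 (0.976) and B2m (0.973) were among the genes most like Parp12. The highest r was with Xdh (0.962), Tmco4 (0.951) and Socs1 (0.946) for Parp10, with Bbs4 (0.921), Pla2g16 (0.908) and Tgtp2 (0.905) for Parp11, and with Batf2 (0.958), Psme2 (0.947) and Irf1 (0.946) for Parp3. None of these was among the genes most like Parp1, which were Mfge8 (0.914), Mcm3 and Prdx6 (0.859), or Parp2, which were Anp32a (0.895), Vrk1 (0.895) and Stard3nl (0.894). The r with Kdm3a was -0.776 for Parp10, -0.660 for Parp9, -0.637 for Parp14, -0.617 for Parp3, -0.547 for Dtx3l, -0.420 for Parp12 and -0.145 for Parp11. For Parp1 it was 0.400 and for Parp2 0.479. Kdm3a is the targeted gene and lower in the knockouts, so these values restate the knockout comparison in part.

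Markers of other cell types moved with some of these results. In 6694c2 KO1 against WT, 8 of 10 macrophage, 5 of 6 tested neutrophil, 7 of 8 fibroblast and 3 of 4 tested T and NK markers, 2 of 3 tested dendritic and 3 of 4 tested endothelial markers were called higher, where 14.7% of all genes were. In 6694c2 KO2, 0, 1, 0, 2, 1 and 0 of them were, where 10.6% of all genes were. Summed T and NK markers (9 of 10 in the table) were 7.69 to 17.1 TPM in 6694c2 KO2, 21.0 to 25.5 in KO1 and 1.75 to 3.43 in WT, and 2.92 to 5.59 in 6419c5 KO2, 6.56 to 18.6 in KO1 and 2.38 to 6.31 in WT. Ncr1 was at 0 in every library of 6694c2 WT, 6419c5 KO1 and 6419c5 WT, and Nkg7 in 6419c5 WT. Summed neutrophil markers were 36.7 to 65.1 TPM in 6694c2 KO2, 156 to 346 in KO1 and 18.1 to 26.7 in WT, and 13.0 to 26.2 in 6419c5 KO2, 69.0 to 86.8 in KO1 and 41.4 to 69.0 in WT, and fibroblast markers were 107 to 864, 708 to 1035 and 152 to 265 TPM in 6694c2 and 267 to 293, 1013 to 1042 and 303 to 610 in 6419c5, in the same order. Summed dendritic markers were 8.69 to 21.9 TPM in 6694c2 KO2, 28.5 to 43.1 in KO1 and 3.45 to 6.07 in WT, and 4.45 to 5.68 in 6419c5 KO2, 11.8 to 19.7 in KO1 and 7.66 to 16.98 in WT. Summed endothelial markers were 5.70 to 9.55 TPM in 6694c2 KO2, 15.1 to 126.8 in KO1 and 2.30 to 2.87 in WT, and 4.01 to 4.77 in 6419c5 KO2, 11.8 to 14.7 in KO1 and 3.41 to 6.60 in WT. The part of T and NK cells, neutrophils, fibroblasts, dendritic and endothelial cells in the rise of the 7 genes was not tested.

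The macrophage index was 4.67, 4.72 and 7.69 in 6694c2 KO2, 8.37, 7.76 and 7.87 in KO1, and 5.20, 6.79 and 3.50 in WT. The first and second KO2 libraries lay within the WT range and the other knockout libraries above it. In 6419c5, the index was 4.23, 3.80 and 4.67 in KO2, 7.24, 9.17 and 8.75 in KO1, and 6.22, 6.98 and 8.88 in WT, so that KO2 lay below WT and KO1 overlapped it. With the index as a covariate all 7 genes were called higher in both lines, with changes of 0.57 to 1.79 in 6694c2 and 0.50 to 0.99 in 6419c5. That fit used a single slope for all groups. The index of 6694c2 KO1 and of 6419c5 KO2 did not overlap that of WT. For these clones the fit extrapolates and cannot tell macrophage content and clone apart. The r between the index and the 7 genes over 18 libraries was 0.136 to 0.382.

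**Figure D4:**
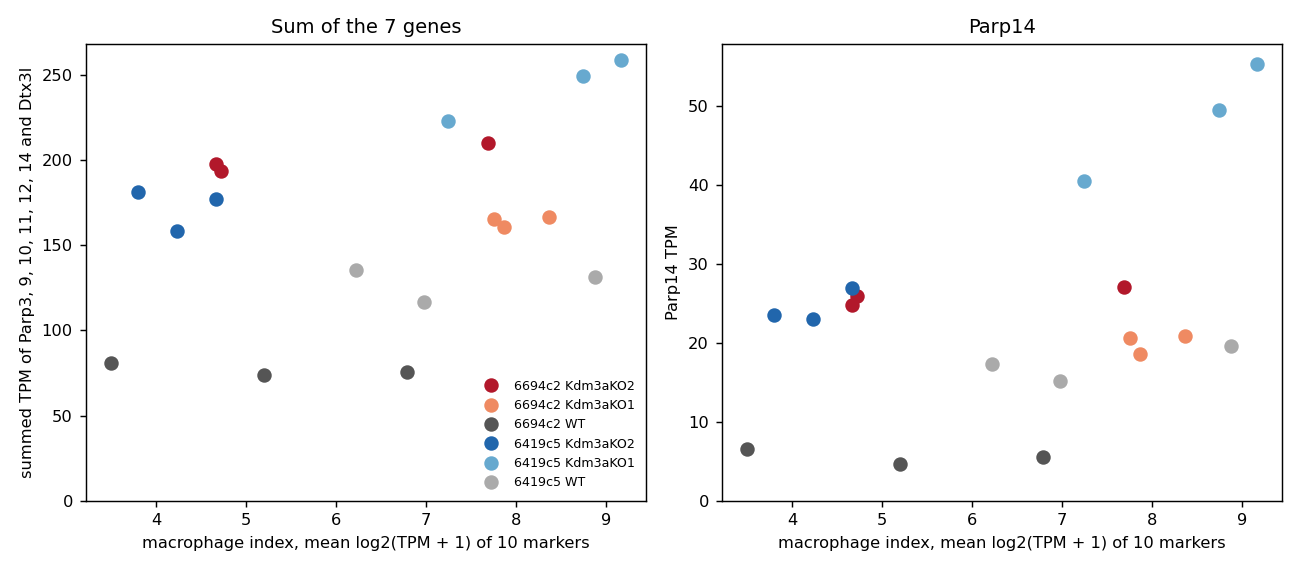
Summed TPM of the 7 genes (left) and TPM of Parp14 (right) against the macrophage index of each of the 18 libraries, by line and genotype. The 6694c2 KO2 libraries have sums of 193.6 to 210.2 TPM at indices of 4.67 to 7.69, and the 6694c2 WT libraries have sums of 73.6 to 81.1 TPM at indices of 3.50 to 6.79. Those of 6694c2 KO1 have 160.6 to 166.6 TPM at 7.76 to 8.37. In 6419c5, the sums are 158.2 to 181.2 TPM at 3.80 to 4.67 in KO2 and 222.9 to 258.9 at 7.24 to 9.17 in KO1. WT of that line has 116.9 to 135.7 TPM at 6.22 to 8.88.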

How the data were processed

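The authors deposited one table of TPM for 24493 genes in 18 libraries. Quantification used Salmon and mm10, per the submitters' processing notes, with versions and settings not given in the sources used here. TPM are scaled to a fixed sum per library and so are relative within a library, and depth and counting error are unknown. In the deposited header the clones carry letters and in the sample titles numbers. A was read as Kdm3aKO1 and B as Kdm3aKO2, an assumption on which every statement by clone rests. The table's name marks it as batch-related without saying what a batch is.

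The 13422 genes that averaged 1 TPM or more were fitted as log2(TPM + 1) with limma 3.58.1 (R 4.3.3), with 6 group means, 12 residual degrees of freedom, a variance trend and Benjamini-Hochberg adjustment over all genes in each of 11 contrasts, called at an adjusted p under 0.05. The fit was tested on simulated data. Figures, summaries and motif searches used Python 3.11.15, pandas 2.3.3, numpy 2.4.6, scipy 1.17.1 and matplotlib 3.10.9. Positions are those of the GENCODE M21 annotation of GRCm38, and promoter windows come from RefSeq.

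All 9 members were named, with up to 6 genes of each list, the tested neighbours, and the genes of highest correlation, except 1 gene that is not reported here. The members and lists were chosen with earlier results of these data known. Alternatives were pseudocounts of 0.1 and 5, a minimum of 5 TPM or none, 3 rescalings, other model terms and leaving out libraries.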

Additional observations from a re-analysis of the deposited data

Results flagged for a closer look

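The change in knockouts, averaged over both clones, differed between the lines for 4 of the 9 genes. The test was that of the difference in limma, with Benjamini-Hochberg adjustment over all genes. Of all genes tested, 8.71% were called in either direction and 5.78% higher. The change in 6694c2 minus that in 6419c5 was 0.91 for Parp14 (adjusted p = 0.003099), 0.86 for Parp12 (adjusted p = 0.001304) and 0.66 for Parp9 (adjusted p = 0.01947), with all 12 knockout libraries above the WT mean of their line for Parp14. It was 0.42 for Parp1 (adjusted p = 0.04959), for which the change was 0.08 in 6694c2 and -0.33 in 6419c5. The fall of Parp1 in 6419c5 was called in KO2 (-0.60, adjusted p = 0.0008876) and not in KO1 (-0.07, adjusted p = 0.8116). The call of Parp1 was lost under 24 of the 30 alternatives and that of Parp9 under 4. WT levels of Parp14, Parp12 and Parp9 were lower in 6694c2 than in 6419c5, and the part of these starting levels in the difference was not tested. KO2 minus KO1 in 6419c5 was -0.95 for Parp14, -0.60 for Parp12 and -0.34 for Parp9, the last not called. With 2 clones per line, line and clone differences cannot be told apart.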

How the results depend on the processing

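Of 3300 gene results under the 30 alternatives, 3127 kept their side of the threshold, of which 66, none of them called, changed sign. Of the others 146 lost a call and 27 gained one, and none of the called changes reversed. The number of members called moved as follows. With only the groups of the comparison in the fit it was 5 of 8 for the mean of both clones in 6419c5, 3 of 7 for KO1 and 1 of 5 for KO2 in 6419c5, and 3 where there was 0 for KO2 minus KO1 in 6694c2. Without the 3 libraries that stood apart it was 5 for the mean in 6419c5 and 2 of 4 for the difference between lines. With the macrophage index as a covariate it was 2 of 4 for KO2 minus KO1 in 6419c5 and 1 for that in 6694c2, where log2(TPM + 5) and removal of the 20 most abundant genes also gave 1. Leaving out each library in turn gave 4 to 8 for the mean in 6419c5, 2 to 4 for the difference between lines, 3 to 5 for KO2 and 6 to 7 for KO1 in 6419c5, 3 to 6 and 0 to 1 for KO2 minus KO1 in 6419c5 and 6694c2, 5 to 6 for WT against WT, and 7 to 7 for the others. The cause of these moves was not tested, beyond fewer libraries in some fits. Most same-numbered libraries did not deviate together. Of 18 pairs, 5 had r above 0.1 (range -0.378 to 0.481), and 6 of 36 matched their own number best. The numbers were therefore not used as pairs in the main fit, and shared handling of same-numbered libraries was not tested. With a replicate block, 2 members were called for the difference between lines, Parp9 being lost (adjusted p = 0.05064), and Dtx3l lost its call in 6419c5 (adjusted p = 0.06067). TPM without counts give no depth, so nothing can be said of counting error for the lower genes, and 3 libraries per group limit what can be detected.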
